A study of Mus musculus and Homo sapiens with 22 samples.

Results

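RNAs longer than 110 nt and shorter than 200 nt were compared between chromatin, nucleoplasm and cytoplasm fractions, and between probing in living cells and probing after refolding. All transcripts with such a length in any of the 12 icSHAPE files were taken as members. They numbered 803 of 26879 transcripts in HEK293, a line of human embryonic kidney origin, and 561 of 17092 in V6.5, a line of mouse embryonic stem (mES) cells. The probe of icSHAPE, NAI-N3, reacts with the 2′-hydroxyl of nucleotides that are free to move, so a score near 1 marks strong reaction and a score near 0 a nucleotide that was paired or otherwise held. For the in vivo samples, living cells received NAI-N3 for 5 min at 37 °C and were fractionated afterwards. For the in vitro samples, RNA purified from each fraction was denatured at 95 °C, refolded with 6 mM MgCl2 and 100 mM NaCl, and only then given NAI-N3. No genotype or other agent differed between these samples, and of the 22 samples of the series the solvent controls and the crosslinking samples were not analysed here.

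RNAs of this size do much of the work of RNA processing in the nucleus. The H/ACA small nucleolar RNAs (snoRNAs) guide the conversion of uridine to pseudouridine in ribosomal RNA and spliceosomal RNA, and they fold into hairpins joined by a single-stranded hinge. The spliceosomal small nuclear RNAs (snRNAs) recognise splice sites and branch points and form the catalytic core of the spliceosome. Both kinds act as ribonucleoproteins, in which bound proteins cover part of the RNA, and 5S ribosomal RNA also falls in this size range. Among mouse genes of the RefSeq annotation of GRCm38.p6, 1756 spanned a length in this range, of which 902 were snoRNAs, 422 pseudogenes, 218 snRNAs, 109 miRNA genes and 62 ribosomal RNAs.

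The files name transcripts by Ensembl transcript identifiers, and no table used here pairs those identifiers with gene names or sequences. Members are therefore described by identifier, length and score profile, with no sequence, and none is assigned to a gene. For the same reason the fractions could not be checked against named marker RNAs. The RefSeq annotation gives context by length only: 34 of 35 mouse genes spanning 164 nt were snRNAs, among them Rnu1a1, as were 15 of 18 genes of 191 nt, while 148 of 154 genes of 132 nt were snoRNAs. Of 72 genes of 119 nt, 29 were ribosomal RNAs and 28 pseudogenes.

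Each group had 1 file, so no test between samples was run and no p-value is given. Intervals are 95% intervals (exact Clopper-Pearson for shares, order statistics for medians) that cover only the counting of transcripts, and transcripts that share sequence are not independent. The read depth of a file was not given in the sources used here, nor was the unit of the deposited abundance. The cell lines also differed in rRNA removal kit and sequencer, so cell line and library preparation cannot be told apart. Per the labels' protocols the same mass of RNA from each HEK293 fraction entered rRNA removal, so ratios compare composition, and fewer cells and less RNA per cell cannot be told apart.

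Of the HEK293 members, 597 were listed in vivo and 622 in vitro in the chromatin files. The nucleoplasm files listed 376 in vivo and 501 in vitro, and the cytoplasm files 386 in vivo and 365 in vitro. The mES files listed 464 in vivo and 427 in vitro for chromatin, 331 and 424 for nucleoplasm, and 254 and 229 for cytoplasm. The whole set of 6 files held 230 HEK293 members (28.6%) and 120 mES members (21.4%) in common, against 4.68% and 8.44% of all transcripts. At least 40 nucleotides were scored in all 6 files for 189 HEK293 members, while 314 HEK293 and 130 mES members had 40 scored nucleotides in no file. The lowest abundance listed ran between 1.37 and 8.44 over the files, so members with low values in a file are absent from its comparisons.

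Some members were alike in length and score profile. Members of equal length whose score profiles correlated with r of at least 0.8 in every file that scored both, over at least 2 files, were called near-copies. In HEK293, 19 near-copy groups held 81 members, the largest with 17 members of 119 nt, 13 of 191 nt, 12 of 164 nt and 8 of 153 nt. In mES cells, 19 groups held 102 members, with 41 of 119 nt, 12 of 191 nt, 9 of 164 nt and 6 of 116 nt. Abundance within a group was close in some groups and wider in others: in chromatin in vivo the 8 HEK293 members of 153 nt ranged between 58607 and 58748, the 12 of 164 nt between 11139 and 16246, and the 6 mES members of 116 nt between 9600 and 19622. Whether near-copies shared sequence or reads was not tested, because no sequences were available. Shares and counts below cover all members, near-copies included, and the value with 1 member per group is given where it differs much. Copies of unequal length were not merged, so that value can still count some RNAs more than once.

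The members made up a small share of the transcripts listed and a large share of the abundance. In HEK293 chromatin in vivo they were 12.7% of transcripts and 60.2% of summed abundance, and in chromatin in vitro 6.06% and 60.8%. In HEK293 cytoplasm they held 69.2% of abundance in vivo and 73.6% in vitro, and in nucleoplasm 42.3% and 39.0%. In mES cells the share of abundance was 43.5% in vivo and 44.8% in vitro in chromatin, and 45.0% and 48.2% in nucleoplasm. In mES cytoplasm it was 11.2% in vivo and 14.6% in vitro. With 1 member per near-copy group the shares were lower, between 13.0% in HEK293 nucleoplasm in vitro and 35.6% in HEK293 chromatin in vitro, and between 7.04% and 29.2% in the mES files.

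The most abundant members differed in where they were high, as the plot of abundance by file shows. The largest value belonged to ENST00000610460, of 153 nt and with 8 near-copies, which had 58748 in vivo and 41122 in vitro in HEK293 chromatin and 54396 and 44481 in nucleoplasm. In HEK293 cytoplasm it had 174488 in vivo and 236632 in vitro, above both nuclear fractions under both probings. ENST00000515896, of 152 nt, followed the same order, with in vivo abundances of 23722 (chromatin), 20859 (nucleoplasm) and 61148 (cytoplasm). The 164-nt member ENST00000384010 had in vivo abundances of 16197 (chromatin), 3708 (nucleoplasm) and 9548 (cytoplasm). In vitro the same member had 16371 in chromatin and 4459 in nucleoplasm, and only 1797 in cytoplasm.

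**Figure D1:**
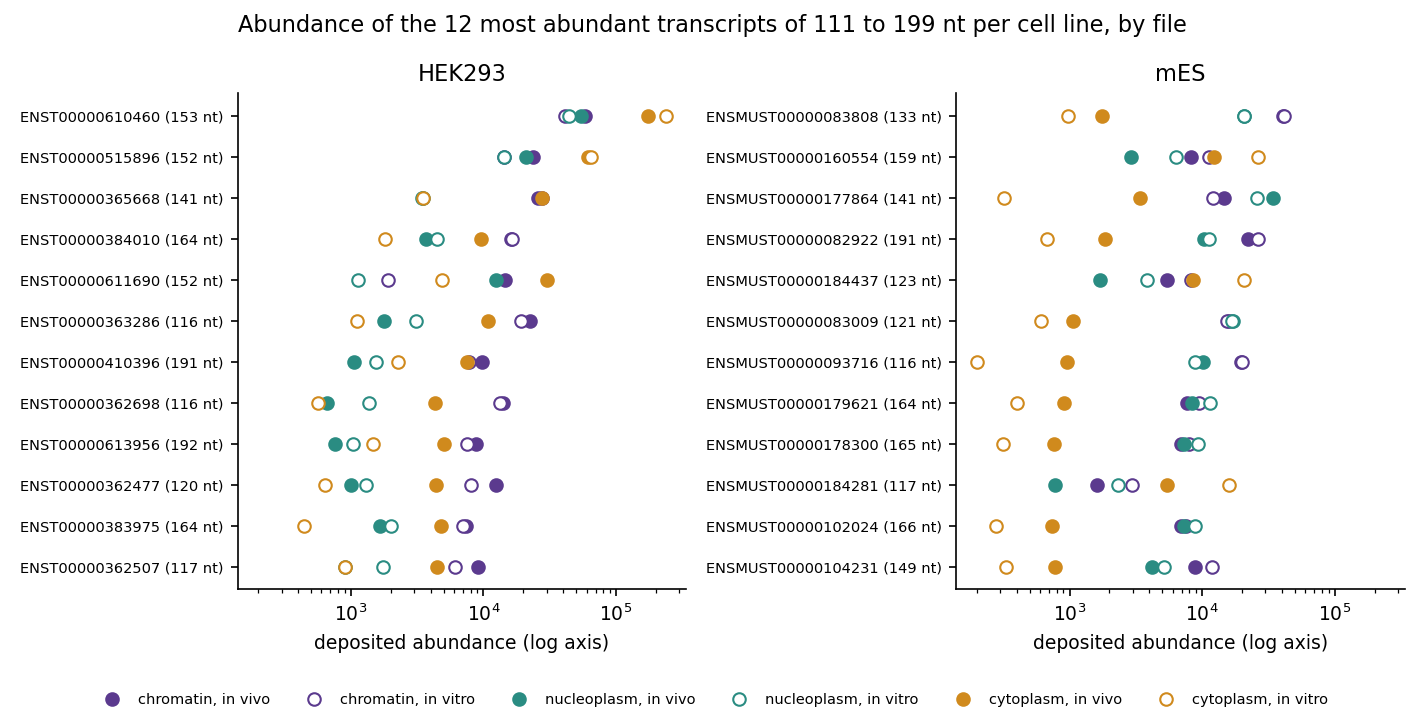
Deposited abundance (log axis) of the 12 most abundant members per cell line, 1 per near-copy group, in each of the 6 files; filled points are in vivo and open points in vitro files, coloured by compartment. In mES cells most members lie lowest in cytoplasm, with ENSMUST00000160554, ENSMUST00000184437 and ENSMUST00000184281 highest there.

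In mES cells the 164-nt member ENSMUST00000179621, with 9 near-copies, had in vivo abundances of 7681 (chromatin), 8372 (nucleoplasm) and 906 (cytoplasm). In vitro it had 9393, 11504 and 403 in the same fractions, so cytoplasm was lowest under both probings. The 191-nt member ENSMUST00000082922 had in vivo abundances of 22340.5 (chromatin), 10261 (nucleoplasm) and 1859 (cytoplasm), and in vitro 26327, 11256 and 680. The 141-nt member ENSMUST00000177864 was highest in nucleoplasm, with in vivo abundances of 14599 (chromatin), 34158 (nucleoplasm) and 3378 (cytoplasm). Against this order, ENSMUST00000160554 of 159 nt had in vivo abundances of 8227 (chromatin), 2923 (nucleoplasm) and 12336 (cytoplasm), and 11315, 6360 and 26436 in vitro.

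The chromatin and nucleoplasm fractions were compared first, to ask how the members divide within the nucleus. In HEK293 in vivo the median log2 ratio of chromatin over nucleoplasm was 3.35 (2.88 to 3.54) over 350 members listed in both files, against -0.17 over 2716 transcripts of all lengths. Of these members, 294 were at least 2-fold higher in chromatin and 8 at least 2-fold higher in nucleoplasm. Over all transcripts 28.8% were at least 2-fold higher in chromatin and 18.7% in nucleoplasm. ENST00000606769, of 126 nt, had 1001 in chromatin and 4.05 in nucleoplasm in vivo, a log2 ratio of 7.63, and its ratio in the in vitro files was 7.91. ENST00000626841 of 141 nt and ENST00000384756 of 126 nt followed, with log2 ratios of 7.36 and 7.02. Members named for their ratios, here and below, had a summed abundance over both files at or above the median member. Among those the lowest ratio belonged to ENST00000510231 of 177 nt, with 1135 in chromatin and 5131 in nucleoplasm, a log2 ratio of -2.18.

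In mES cells in vivo the median log2 ratio of chromatin over nucleoplasm was 1.14 (0.97 to 1.5) over 295 members, against -0.77 over 8533 transcripts. At least 2-fold higher in chromatin were 163 members and in nucleoplasm 17, where 7.36% and 36.1% of all transcripts passed these limits. Length divided the members: the median was 2.39 for 161 members shorter than 140 nt, 0.02 for 95 members of 140 nt to under 170 nt, and 1.09 for 39 of 170 nt or more. The same bins in HEK293 gave 4.13, 2.21 and 3.62, so the middle bin was lowest in both cell lines. Counted once per near-copy group, the bins gave 3.84, 2.33 and 3.81 in HEK293 and 2.39, 0.16 and 0.69 for the mES members. Set beside them, transcripts of 60 to 110 nt had medians of 3.53 in HEK293 and 1.19 in mES cells, and those of 200 nt to under 350 nt had 0.50 and -0.76. ENSMUST00000083791 of 138 nt had 4872 in chromatin and 62.9 in nucleoplasm, a log2 ratio of 6.25. ENSMUST00000082965, of 135 nt, had 55020 in chromatin and 808 in nucleoplasm, a log2 ratio of 6.09. The 141-nt members ENSMUST00000177864 and ENSMUST00000101833 lay at the other end, with -1.23 and -1.17.

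Chromatin was then set against cytoplasm. In HEK293 in vivo the median log2 ratio of chromatin over cytoplasm was 1.38 (1.20 to 1.41) over 327 members, against -1.45 over 2138 transcripts. At least 2-fold higher in chromatin were 189 members and in cytoplasm 46, against 20.8% and 56.9% of all transcripts. ENST00000384792 of 133 nt had 1599 in chromatin and 8.32 in cytoplasm, a log2 ratio of 7.42, and ENST00000384714 of 146 nt had 3974 and 41.2, a ratio of 6.56. Both 113-nt members at the other end, ENST00000383924 and ENST00000364228, had log2 ratios of -4.23, with 41.4 in chromatin and 795 in cytoplasm for the one and 174 and 3275 for the other. Their log2 ratios in the in vitro files were -4.37 and -5.00.

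In mES cells in vivo the median log2 ratio of chromatin over cytoplasm was 3.56 (3.15 to 3.76) over the members listed in both files, against -1.25 over 6395 transcripts. At least 2-fold higher in chromatin were 165 members (82.9%) and in cytoplasm 20 (10.1%), against 9.68% and 59.3% of all transcripts. ENSMUST00000082965 had 55020 in chromatin and 85.1 in cytoplasm, a log2 ratio of 9.32 in vivo and 9.56 in vitro. ENSMUST00000083888 of 148 nt had 6163 and 27.2, a log2 ratio of 7.77. On the cytoplasmic side, ENSMUST00000184281 of 117 nt had 1597 in chromatin and 5421 in cytoplasm, a ratio of -1.76, and ENSMUST00000083767 of 112 nt had 714 and 2378, a ratio of -1.73. ENSMUST00000184437 of 123 nt had a log2 ratio of -0.65, which became 0.60 when taken relative to the median of all transcripts.

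Nucleoplasm over cytoplasm was the ratio whose median lay on opposite sides of 0 in the cell lines. In HEK293 in vivo the median log2 ratio was -1.70 (-1.83 to -1.58) over 304 members, against -1.61 over 3043 transcripts of all lengths, and it was -0.09 relative to that median. At least 2-fold higher in nucleoplasm were 24 members and in cytoplasm 221, against 3.06% and 82.7% of all transcripts. In mES cells in vivo the median was 2.60 (2.43 to 2.94) over 228 members, against -0.56 over 8955 transcripts. At least 2-fold higher in nucleoplasm were 165 members and in cytoplasm 42, against 8.36% and 24.6% of all transcripts. By length the mES medians were 2.94 for members shorter than 140 nt and 2.99 for those of 140 nt to under 170 nt. The 45 members of 170 nt or more had -0.20 (-1.03 to 2.43), and -0.88 with 1 member per near-copy group. ENSMUST00000157310 of 178 nt had 964 in mES nucleoplasm and 24.2 in cytoplasm, a log2 ratio of 5.26. Among HEK293 members at or above the median summed abundance the highest was ENST00000384281 of 123 nt, with 267 and 35.4 and a log2 ratio of 2.88. The lowest among the same HEK293 members included ENST00000365651, of 119 nt, with 45.8 in nucleoplasm and 1328 in cytoplasm, a log2 ratio of -4.83.

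**Figure D2:**
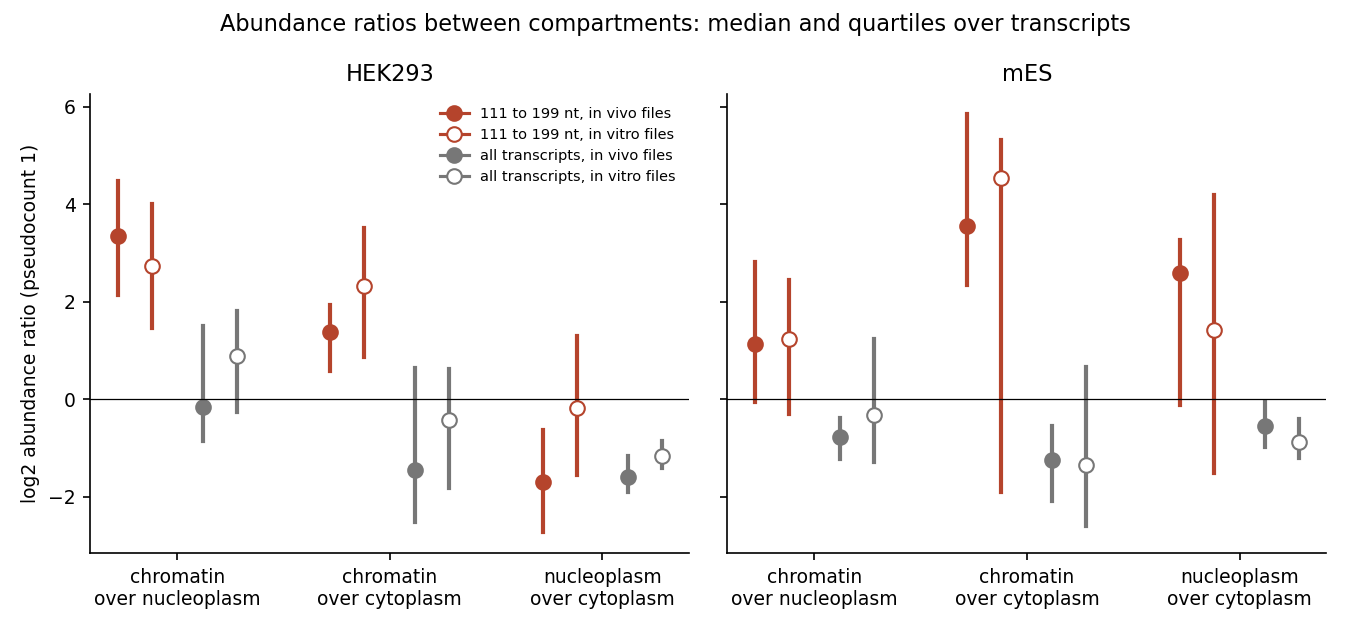
Log2 abundance ratios between compartments (log2 of abundance plus a pseudocount of 1): points are medians and bars quartiles over the members and over all transcripts listed in both files, with filled points for in vivo and open points for in vitro files. The members lie above all transcripts in every ratio except nucleoplasm over cytoplasm in HEK293 in vivo, where the medians are -1.70 and -1.61.

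The in vitro files, made from fractions of the same kind, gave the same sign for the median of every ratio over all members. In HEK293 the in vitro median log2 ratio of chromatin over nucleoplasm was 2.74, with 324 of 397 members at least 2-fold higher in chromatin and 18 in nucleoplasm, against 46.7% and 16.6% of all transcripts. For chromatin over cytoplasm it was 2.33, with 198 of 275 members at least 2-fold higher in chromatin and 27 in cytoplasm, against 20.8% and 37.3%. For nucleoplasm over cytoplasm it was -0.17 (-0.53 to 0.05), with 93 of 311 members at least 2-fold higher in nucleoplasm and 116 in cytoplasm, against 2.2% and 66.1%. That interval spanned 0, and relative to the median of all transcripts the value turned to 1.00.

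In mES cells in vitro the median log2 ratio of chromatin over nucleoplasm was 1.24, with 191 of 340 members at least 2-fold higher in chromatin and 12 in nucleoplasm, against 29% and 32.6% of all transcripts. For chromatin over cytoplasm it was 4.53, with 110 of 161 members at least 2-fold higher in chromatin and 47 (29.2%) in cytoplasm, against 24% and 56%. The share higher in cytoplasm was 12.8% with each near-copy group counted once. For nucleoplasm over cytoplasm it was 1.41 (-0.88 to 3.03), with 112 of 218 members at least 2-fold higher in nucleoplasm and 87 in cytoplasm, against 8.7% and 40.8%. With 1 member per near-copy group this last median was 2.24 over 145 members.

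Among members listed in all 4 files of a ratio, 270 of 335 in HEK293 were at least 2-fold higher in chromatin than in nucleoplasm under both probings and 5 higher in nucleoplasm, against 33.6% and 17.2% of all transcripts. For nucleoplasm over cytoplasm in HEK293, 21 of 254 were higher in nucleoplasm and 85 in cytoplasm under both, against 2.68% and 72.9% of all transcripts. Another 46 were at least 2-fold apart in opposite directions in the in vivo and in vitro files, where 1.75% of all transcripts, 51 of 2911, were. In mES cells 152 of 265 members were higher in chromatin than in nucleoplasm under both probings and 5 higher in nucleoplasm, against 23.7% and 21.6% of all transcripts. Opposite directions were near absent over mES transcripts of all lengths, at 1 of 2415 for chromatin and nucleoplasm and 0 for the other pairs, and 0 members showed them.

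The 119-nt members showed the near-copies at their most numerous. In HEK293, the 17 near-copies had in vivo medians of 3488 (chromatin), 47.4 (nucleoplasm) and 1324 (cytoplasm), and in vitro medians of 3126, 52.8 and 2021. Nucleoplasm was thus lowest by a wide margin under both probings. In mES cells the 41 near-copies were scarce: their median was 23.6 in chromatin in vivo, none was listed in nucleoplasm or cytoplasm in vivo, and in vitro they had medians of 24.4, 34.1 and 103 in chromatin, nucleoplasm and cytoplasm. The kits used for rRNA removal differed between the cell lines, and their part in these levels was not tested.

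The next comparison asked whether the members reacted more in living cells or after refolding. Mean scores covered the nucleotides scored under both probings, and members with at least 40 of them entered. In HEK293 chromatin 38.5% (33.7 to 43.5) of 395 members had the higher mean in vivo, in nucleoplasm 35.5% (29.9 to 41.5) of 276, and in cytoplasm 28.0% (22.4 to 34.1) of 243. The median mean scores were 0.149 in vivo and 0.165 in vitro in chromatin, 0.149 and 0.177 in nucleoplasm, and 0.130 and 0.165 in cytoplasm. Over all HEK293 transcripts the shares were 40.8%, 38.5% and 31.2%. By length, HEK293 chromatin gave different shares: 68.4% (54.8 to 80.1) of 57 members of 170 nt or more had the higher mean in vivo, against 34.3% of 236 members shorter than 140 nt and 31.4% of 102 between these lengths. The first of these, counted once per near-copy group, was 58.1% (42.1 to 73.0) of 43, an interval that spans 50%. In mES cells the members had the higher mean in vivo in 34.5% (29.5 to 39.8) of 339 in chromatin, 29.4% (24.2 to 35.0) of 286 in nucleoplasm and 43.0% (35.0 to 51.3) of 151 in cytoplasm. Over all mES transcripts the shares lay on the other side, at 62.6%, 62.9% and 84.7%. When only nucleotides above 0 in both files were used, the mES members gave 43.3% in chromatin, 46.3% in nucleoplasm and 37.3% in cytoplasm, so the nucleoplasm share came close to 50%.

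Members past a difference of 0.05 in mean score were counted next. In HEK293 chromatin 37 members (9.37%) were higher and 97 (24.6%) lower in vivo by that much, against 12.6% and 26.3% of all transcripts, so these shares were near the background. In HEK293 cytoplasm 18 (7.41%) were higher and 68 (28.0%) lower, against 9.01% and 22.7%, and in nucleoplasm 23 (8.33%) and 94 (34.1%), against 11.8% and 20.5%. Counted once per near-copy group, 17.8% of HEK293 members were lower in chromatin. In mES chromatin 17 members (5.01%) were higher and 48 (14.2%) lower, against 27.4% and 14.1% of all transcripts, and the second share was 10.3% with 1 member per near-copy group. In mES nucleoplasm 10 (3.50%) were higher and 68 (23.8%) lower, against 10.3% and 2.84%, and in cytoplasm 17 (11.3%) and 24 (15.9%), against 29.7% and 2.07%. Of 188 HEK293 members measured in all 3 compartments, 18 (9.57%) were higher and 89 (47.3%) lower in vivo in every one, against 14.3% and 27.7% of all HEK293 transcripts, and with 1 member per near-copy group 12.9% and 40.3%. Of the mES members measured in all 3, 10 were higher and 52 (46.8%) lower in every compartment, against 35.3% and 7.96% of all mES transcripts, and with 1 member per near-copy group 9 and 30 of 79 (38.0%).

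The direction in HEK293 nucleoplasm and cytoplasm depended on the scale. Each score was replaced by its percentile rank among all scores of its file. By rank 53.4%, 62.3% and 72.0% of HEK293 members were higher in vivo in chromatin, nucleoplasm and cytoplasm. The nucleoplasm and cytoplasm shares were the opposite of the result on the scores themselves. The chromatin share was close to an even split and gives no clear direction, and no interval is given for the shares by rank. By construction a score of 0 took a rank of 15.9% in vivo and 13.0% in vitro in HEK293 chromatin. In mES chromatin it took 10.5% in vivo and 20.8% in vitro, and the share of members higher in vivo was 1.77% by rank. In mES nucleoplasm and cytoplasm the shares by rank were 17.1% and 9.27%, on the same side as by score.

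**Figure D3:**
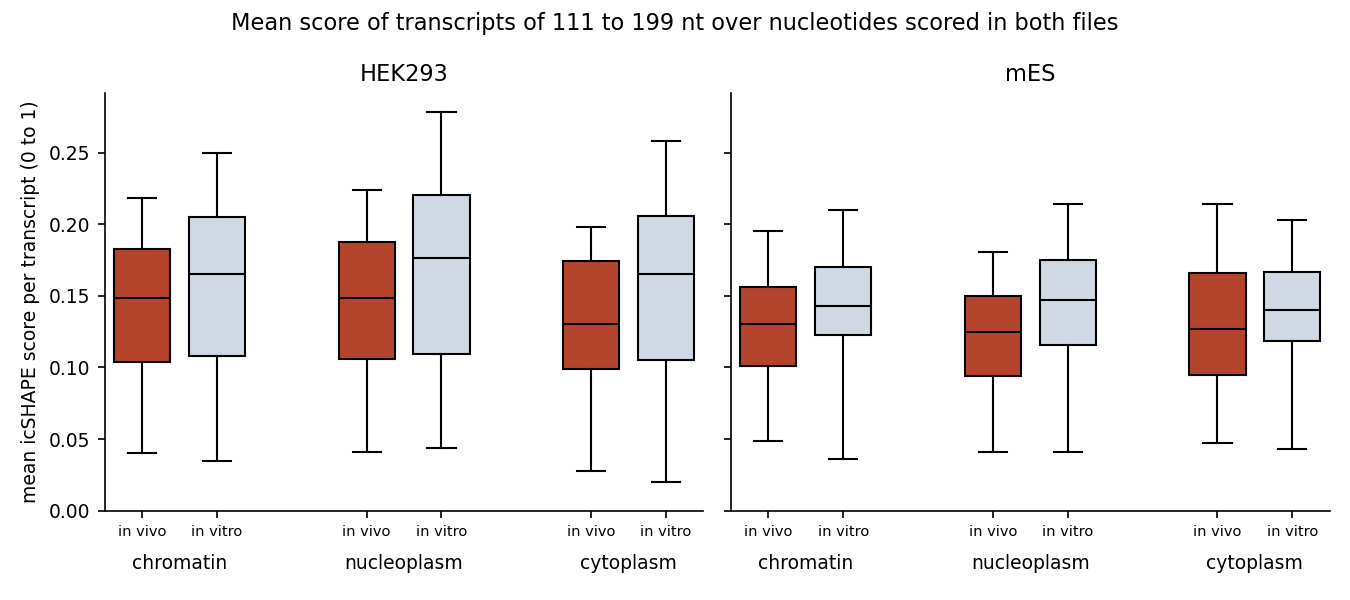
Mean icSHAPE score per member over nucleotides scored in both files, in vivo left and in vitro right for each compartment; boxes show quartiles and median, whiskers the 5th and 95th percentiles over members. The median is lower in vivo in all 6 pairs of files, with 0.149 in vivo and 0.165 in vitro in HEK293 chromatin and 0.127 and 0.140 in mES cytoplasm.

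Single members covered a wide range in both directions. ENST00000390981 of 114 nt had mean scores of 0.159 in vivo and 0.304 in vitro in HEK293 chromatin, and 0.133 and 0.389 in nucleoplasm. ENST00000384476 of 165 nt had 0.0823 in vivo and 0.249 in vitro in HEK293 cytoplasm, where its profiles correlated with r of 0.0850. Higher in vivo were ENST00000362455 of 127 nt, with 0.219 in vivo and 0.0419 in vitro in chromatin, and ENST00000411053 of 191 nt, with 0.219 and 0.0201 in cytoplasm. In mES nucleoplasm ENSMUST00000087694 of 125 nt had 0.141 in vivo and 0.281 in vitro, and ENSMUST00000118324 of 138 nt had 0.211 and 0.110. The members ENSMUST00000083860 and ENSMUST00000082547 were higher in vivo in mES chromatin by 0.117 each on the scores and lower by rank.

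The position of the scores along the RNA also differed between the probings. Across the shared nucleotides of a member, the median r between in vivo and in vitro in HEK293 was 0.583 (chromatin), 0.591 (nucleoplasm) and 0.502 (cytoplasm), and 0.571, 0.536 and 0.610 in mES cells. Between compartments in vivo the medians were much higher, at 0.906 for chromatin and nucleoplasm, 0.880 for chromatin and cytoplasm and 0.898 for nucleoplasm and cytoplasm in HEK293. The mES values were 0.910, 0.893 and 0.910. Over all transcripts the compartment medians in vivo ran between 0.692 and 0.80. The Gini index, which is higher where the score sits on fewer nucleotides, was higher in vivo in 65.3%, 73.2% and 72.0% of HEK293 members in chromatin, nucleoplasm and cytoplasm, against 61.5%, 78.5% and 78.9% of all HEK293 transcripts. The mES members gave 70.5%, 81.5% and 55.6%, against 21.0%, 42.9% and 4.53% of all mES transcripts. With 1 member per near-copy group the mES cytoplasm share was 44.9%, on the other side of 50%.

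A human and a mouse member of 164 nt serve as an example of such a shift, as the plot of their profiles shows. The pair was chosen after its values were seen. Windows of 10 nt were placed on the mean chromatin profile of the human and the mouse member. The 3 most reactive in vitro and the single most reactive one in vivo were taken. The same nucleotides were thus read in both members by construction. Nucleoplasm and cytoplasm had no part in placing the windows, but profiles of 1 probing were alike between fractions. The direction of the differences therefore follows from the choice in every fraction, and only their sizes are described. Over nucleotides 122 to 131, ENSMUST00000179621 scored 0.0179 in vivo and 0.721 in vitro in chromatin on average, 0.0121 and 0.712 in nucleoplasm, and 0.0689 and 0.653 in cytoplasm. The human ENST00000384010 had 0.00950 and 0.489, 0.00590 and 0.564, and 0.0131 and 0.704 over the same nucleotides. This stretch was thus near 0 in cells and reactive after refolding, in each fraction of both cell lines. All 12 human and all 9 mouse near-copies lay at or below 0.0907 in vivo and at or above 0.417 in vitro there. These near-copies were grouped by the likeness of their profiles, and whether they shared reads was not tested. They do not count as separate cases.

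Nucleotides 28 to 37 of the 164-nt members behaved likewise. ENST00000384010 had 0.0160 in vivo and 0.555 in vitro in chromatin, 0.0137 and 0.535 in nucleoplasm, and 0.00490 and 0.420 in cytoplasm. ENSMUST00000179621 had 0 in vivo and 0.383 in vitro in chromatin, 0 and 0.427 in nucleoplasm, and 0.0183 and 0.477 in cytoplasm. The near-copies spread more here, between 0.148 and 0.383 in mES chromatin in vitro. Over nucleotides 65 to 74 the human member had 0.147, 0.10 and 0.0632 in vivo against 0.605, 0.645 and 0.511 in vitro in chromatin, nucleoplasm and cytoplasm. The mouse member had 0.228, 0.184 and 0.173 in vivo against 0.368, 0.300 and 0.298 in vitro there. Nucleotides 100 to 109, the window chosen in vivo, stayed reactive in cells: the human member had 0.446, 0.458 and 0.476 in vivo against 0.371, 0.429 and 0.427 in vitro in chromatin, nucleoplasm and cytoplasm. The mouse member had 0.423, 0.400 and 0.344 in vivo against 0.196, 0.204 and 0.166 in vitro.

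**Figure D4:**
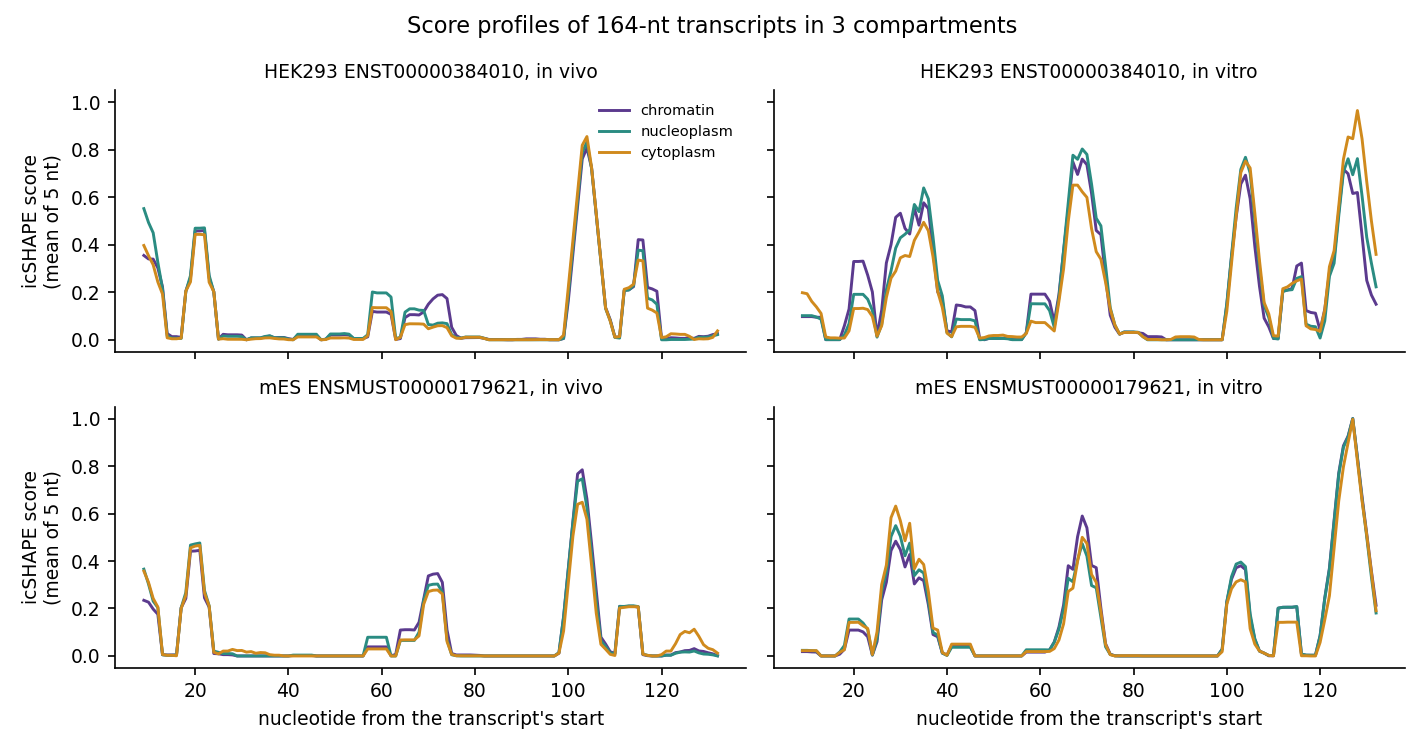
icSHAPE score along the 164-nt members ENST00000384010 (top) and ENSMUST00000179621 (bottom), as a running mean of 5 nt, in vivo left and in vitro right, with 1 line per compartment. The lines of the 3 compartments overlie each other within each panel, and the peak at nucleotides 122 to 131 stands on the in vitro side in both cell lines, with 0.0179 in vivo and 0.721 in vitro in mES chromatin.

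Members of 165 and 166 nt in mES cells carried the same pattern. Near-copy groups required equal length, so these members were not merged with those of 164 nt. Their abundances were close: in chromatin in vivo the groups ranged over 6114 to 7681 (164 nt), 6588 to 6960 (165 nt) and 6949 to 6968 (166 nt). Whether they shared reads was not tested, so they do not count as separate cases. ENSMUST00000178300, of 165 nt, had 0.0119 in vivo and 0.697 in vitro over nucleotides 123 to 132 in chromatin, and ENSMUST00000102024, of 166 nt, had 0.0052 and 0.645 there. Of 16 mouse RefSeq genes spanning 165 nt, 12 were snRNAs, among them Rnu1b1 and Rnu1b2. A second human 164-nt member, ENST00000383975, differed from the near-copy group in its profile but was likewise low in cells at nucleotides 28 to 37, with 0.0341 in vivo and 0.602 in vitro in chromatin.

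For the other abundant members, the most reactive 10 nt in chromatin were taken in vivo and in vitro and then read in nucleoplasm and cytoplasm, which had no part in choosing them. Profiles of 1 probing were more alike between fractions than profiles of the 2 probings were, so the direction of these differences follows from the choice and only the places and sizes are described. Among the human members of 116 to 120 nt, ENST00000363286 of 116 nt reacted most in vitro at nucleotides 20 to 29, with 0.310 in vivo and 0.476 in vitro in nucleoplasm and 0.0783 and 0.561 in cytoplasm. It reacted most in vivo at nucleotides 69 to 78, with 0.484 in vivo and 0.115 in vitro in nucleoplasm and 0.677 and 0.156 in cytoplasm. The mouse 116-nt member ENSMUST00000093716 had the same pair of places, at nucleotides 18 to 27 with 0.215 in vivo and 0.584 in vitro in nucleoplasm, and at 68 to 77 with 0.212 and 0.0272. Of 29 mouse RefSeq genes spanning 116 nt, 9 were snRNAs, among them Rnu5g, and 14 pseudogenes.

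The 191-nt members differed between the cell lines. The mouse ENSMUST00000082922 reacted most in vivo at nucleotides 85 to 94, with 0.808 in vivo and 0.0707 in vitro in nucleoplasm and 0.739 and 0.0700 in cytoplasm. In vitro it reacted most at 28 to 37, with 0.359 in vivo and 0.461 in vitro in nucleoplasm. The human ENST00000410396 reacted most in overlapping places under both probings, at 23 to 32 in vivo and 27 to 36 in vitro. Its window of 23 to 32 had 0.629 in vivo and 0.436 in vitro in nucleoplasm, and 0.377 and 0.515 in cytoplasm.

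The human members of 152 and 153 nt shifted by a few nucleotides. ENST00000610460 had 0.754 in vivo and 0.330 in vitro over nucleotides 77 to 86 in nucleoplasm, and 0.760 and 0.289 in cytoplasm. Over nucleotides 70 to 79 it had 0.299 and 0.738 in nucleoplasm and 0.306 and 0.727 in cytoplasm. The 121-nt mouse member ENSMUST00000083009 was near 0 in cells over nucleotides 27 to 36, with 0 in vivo and 0.549 in vitro in nucleoplasm and 0.0269 and 0.562 in cytoplasm. The 141-nt mouse member ENSMUST00000177864 had 0.0806 in vivo and 0.659 in vitro over nucleotides 68 to 77 in nucleoplasm. Its human counterpart in length, ENST00000365668, reacted most at nucleotides 61 to 70 in vivo and 60 to 69 in vitro, with 0.597 in vivo and 0.836 in vitro over the first of these in nucleoplasm. The mouse 123-nt member ENSMUST00000184437 had close values under both probings over nucleotides 13 to 22, with 0.730 in vivo and 0.698 in vitro in nucleoplasm.

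**Figure D5:**
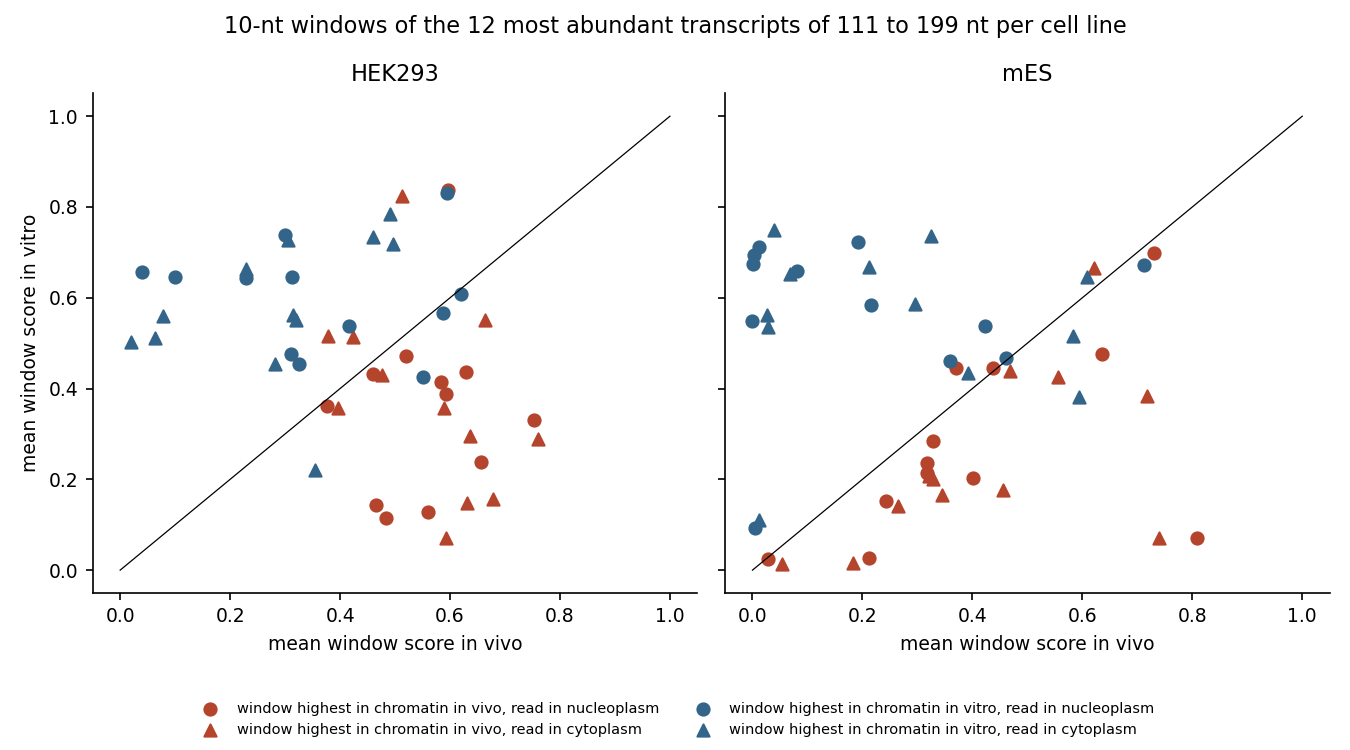
Mean score in vivo (horizontal) against in vitro (vertical) of 10-nt windows of the 12 most abundant members per cell line, read in nucleoplasm (circles) and cytoplasm (triangles); red windows were the most reactive in chromatin in vivo and blue ones in chromatin in vitro, and the line marks equal scores. Blue windows lie mostly above the line, several of them near 0 in vivo and above 0.5 in vitro, and red windows mostly below it.

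The same reading was made over all members with 40 scored nucleotides in the 6 files, and over transcripts of all lengths, where the choice of window sets the direction in the same way. Windows most reactive in HEK293 chromatin in vitro were higher in vivo in 22.2% of 171 members in nucleoplasm and 22.4% of 170 in cytoplasm, against 33.0% and 37.8% of all transcripts. In mES cells they were higher in vivo in 9.91% of the members in nucleoplasm and 12.7% of 102 in cytoplasm, against 15.1% and 35.1%. With 1 member per near-copy group the mES shares were 13.9% of 79 and 18.6% of 70, the first of them near that of all transcripts. Median scores of these windows in nucleoplasm were 0.317 in vivo and 0.538 in vitro over the HEK293 members, and 0.272 and 0.567 over the mES members. Over transcripts of all lengths the HEK293 medians were 0.429 and 0.545, and the mES medians 0.411 and 0.609. Windows most reactive in chromatin in vivo were higher in vivo in 71.3% of 167 HEK293 members and 78.4% of mES members in nucleoplasm, against 59.4% and 57.4% of all transcripts. With 1 member per near-copy group these shares were 68.0% and 73.4%. The most reactive windows of the 3 compartments started within 10 nt of each other in vivo in 49.2% of these HEK293 members and 66.7% of these mES members, and with 1 member per near-copy group in 52.1% and 60.8%. Over all 6 files the shares were 23.8% and 14.4%, and with 1 member per group 26.4% and 20.3%. The 6 files include the 3 in vivo ones, so these shares could only be lower or equal and do not compare the probings. Within a compartment, in vivo and in vitro windows started within 10 nt in 50.8% (chromatin), 52.4% (nucleoplasm) and 46.6% (cytoplasm) of HEK293 members. The mES members gave 31.5%, 30.6% and 38.7%. With 1 member per group HEK293 gave 53.6%, 59.3% and 55.7%, and mES 41.8%, 43.0% and 53.2%. Transcripts of all lengths were not counted here.

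The scorable stretch of each RNA was also divided into 5 equal parts. In the second of them 32.1% of 346 HEK293 members were higher in vivo in chromatin, 20.5% of 249 in nucleoplasm and 22.6% of 217 in cytoplasm. The mES shares were 27.3% of 322, 25.5% of 275 and 26.7% of 146. Counting each near-copy group once, the HEK293 shares were 37.4%, 25.3% and 28.0%, and the mES shares 33.5%, 28.7% and 34.5%. Median scores there were 0.109 in vivo and 0.186 in vitro in HEK293 chromatin and 0.109 and 0.153 in mES chromatin. In the first 5′ part the mES members lay on the other side, with 65.2%, 63.9% and 60.5% higher in vivo in chromatin, nucleoplasm and cytoplasm, and HEK293 members with 54.0%, 60.3% and 32.2%. The third part lay between 32.3% and 41.7% in the 6 pairs of files. The part before the last gave HEK293 shares of 49.2%, 45.1% and 60.8%, and mES shares of 59.8%, 53.9% and 55.2%. Counted once per near-copy group, its HEK293 cytoplasm share was 53.6% (45.7 to 61.3), an interval that spans 50%. The last part gave HEK293 shares of 50.9%, 28.6% and 50.5%, and in cytoplasm 43.8% with 1 member per near-copy group. The mES shares of the last part were 28.5%, 17.2% and 32.0%, in nucleoplasm below that of the second part. Transcripts of 200 nt to under 350 nt had 42.4%, 44.3% and 43.1% higher in vivo in the second part in HEK293 and 64.1%, 48.3% and 60.2% in mES cells. In the other parts these longer transcripts were close to the members in some pairs of files and apart in others. They had 63.2% in the first part in mES cytoplasm and 58.2% in the part before the last in mES chromatin, close to the members. They had 55.8% in the third part in mES chromatin and 46.1% in the last part in mES nucleoplasm, above the members. Where the shares were close, they were not particular to the members.

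The compartments were last compared under the same probing. In HEK293 in vivo 54.4% (47.8 to 60.8) of 239 members had the higher mean in chromatin than in nucleoplasm, 57.1% (50 to 63.9) of 205 in chromatin than in cytoplasm and 61.3% (54.5 to 67.8) of 217 in nucleoplasm than in cytoplasm. In mES cells in vivo the shares were 61.2% (54.9 to 67.3) of 250, 40% (32 to 48.5) of 145 and 26.4% (20.1 to 33.6) of 174. The median differences in mean score lay between -0.0117 and 0.00802 in the 6 pairs. Ranks put 3 of the 6 on the other side of 50%. They gave 35.0% for HEK293 nucleoplasm over cytoplasm and 10.8% for mES chromatin over nucleoplasm. For mES nucleoplasm over cytoplasm they gave 51.7%, which is close to 50%. In vitro the HEK293 shares for these pairs were 32.1%, 50% and 54.6%, the first of them 93.6% by rank, and the mES shares 50.2%, 55.0% and 50.3%.

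Members past a difference of 0.05 between compartments in vivo were fewer than between probings. They are given as counts, out of the members of each pair stated above, beside percentages of all transcripts. As shares they lay below those of all transcripts in the pairs with chromatin. For nucleoplasm and cytoplasm they were near those of all transcripts. In HEK293, 18 were higher in chromatin and 14 in nucleoplasm, against 14.2% and 18.6% of all transcripts, 20 in chromatin and 9 in cytoplasm, against 18.7% and 16.2%, and 19 in nucleoplasm and 14 in cytoplasm, against 8.57% and 6.16%. In mES cells the counts were 22 in chromatin and 5 in nucleoplasm, against 30.2% and 9.13%, 5 in chromatin and 8 in cytoplasm, against 24% and 19.2%, and 7 in nucleoplasm and 15 in cytoplasm, against 5.38% and 8.64%. ENST00000384476 of 165 nt had HEK293 mean scores of 0.216 in chromatin, 0.107 in nucleoplasm and 0.0823 in cytoplasm. ENST00000410533 of 180 nt had 0.217 in chromatin and 0.0999 in nucleoplasm over 42 shared nucleotides. ENST00000424567 of 135 nt had 0.238 in nucleoplasm and 0.0918 in cytoplasm. Among mES members, ENSMUST00000157523 of 132 nt had 0.294 in chromatin and 0.186 in cytoplasm, while ENSMUST00000083033 of 167 nt had 0.0266 in chromatin and 0.151 in cytoplasm over 44 nucleotides.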

How the data were processed

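Each line of the 12 icSHAPE files gives a transcript identifier, its length, its abundance and 1 score per nucleotide. The deposited abundance is a signal, with a unit and normalization not given in the sources used here. Deposited scores are fractions between 0 and 1, missing over the first 6 and last 30 nucleotides. The submitters' processing notes name Bowtie2, UMI-tools and the builds hg38 and mm10, without versions. Whether replicates were combined was not given in the sources used here. Values outside 0 to 1, all in 1 transcript that is not a member, were set to missing.

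With 1 file per group, groups were compared by log2 ratios of abundance (pseudocount 1), by mean scores over at least 40 shared nucleotides, by Pearson's r and by the Gini index, and no test was run (Python 3.11.15, NumPy 2.4.6, pandas 2.3.3, SciPy 1.17.1). Scripts were tested on simulated data. The members and lists were chosen with earlier results of these data known. Named members were the 12 most abundant per cell line scored in all 6 files, 1 per group of shared profiles, plus the highest and lowest ratios and differences of each comparison. Ratios were ranked only among members whose summed abundance over both files was at or above the median member. No members had identical scores in all files, so near-copy groups, defined after the data were seen, took the place of families of identical scores in this rule. The near-copy alternative, an abundance floor of 10, the pair of profiled members and the windows were also chosen after seeing the data. Gene lists could not be applied because identifiers were not paired with names.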

Additional observations from a re-analysis of the deposited data

Results flagged for a closer look

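The cell lines stood on opposite sides in 2 comparisons of nucleoplasm with cytoplasm in vivo. The median log2 abundance ratio of the members was -1.70 in HEK293 and 2.60 in mES cells. The share of members with the higher mean score in nucleoplasm was 61.3% in HEK293 and 26.4% in mES cells. Each interval lay wholly on its own side, but the difference between the cell lines was not tested, and cell line and library preparation cannot be told apart. By rank the shares were 35.0% in HEK293 and 51.7% in mES cells.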

How the results depend on the processing

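No paired analysis was possible because each group held 1 file and no test was run. Some alternatives were chosen after seeing the data: 1 member per near-copy group and an abundance of at least 10. A pseudocount of 0.1 moved none of the median ratios by more than their spread, and an abundance of at least 1 or 1 member per family of identical scores left every member in place.

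Relative to the median of all transcripts, the HEK293 median log2 ratios in vivo were 2.82 for chromatin over cytoplasm and -0.092 for nucleoplasm over cytoplasm, and in vitro 1.85 for chromatin over nucleoplasm and 1.00 for nucleoplasm over cytoplasm. The mES ratios became 1.91 for chromatin over nucleoplasm, 4.81 for chromatin over cytoplasm and 3.16 for nucleoplasm over cytoplasm in vivo, and 1.55 and 5.88 for chromatin over nucleoplasm and over cytoplasm in vitro. ENSMUST00000184437 turned to 0.60 for chromatin over cytoplasm. With abundance of at least 10, HEK293 nucleoplasm over cytoplasm in vitro was 0.12.

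With 1 member per near-copy group, chromatin over cytoplasm was 1.45 in HEK293 in vivo, and the mES in vitro ratios of chromatin were 1.51 over nucleoplasm and 4.78 over cytoplasm. In mES cells in vitro, 63.2% were at least 2-fold higher in chromatin than nucleoplasm, 83.0% in chromatin than cytoplasm, 12.8% in cytoplasm than chromatin and 32.4% in cytoplasm than nucleoplasm. Lower in vivo by at least 0.05 were 17.8% in HEK293 chromatin and 10.3% in mES chromatin. The share higher in vivo was 34.4% in HEK293 cytoplasm and 40.5% in mES chromatin, and the share higher in chromatin than nucleoplasm in HEK293 in vivo was 61.6%. The Gini index was higher in vivo in 65.1% in HEK293 cytoplasm and 44.9% in mES cytoplasm. The median r was 0.517 between probings in HEK293 cytoplasm, 0.888 between mES chromatin and cytoplasm in vivo, 0.899 between mES nucleoplasm and cytoplasm in vivo, and 0.909 between the same fractions in vitro.

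By rank, 53.4%, 62.3% and 72.0% of HEK293 members were higher in vivo in chromatin, nucleoplasm and cytoplasm. This turned the direction in nucleoplasm and cytoplasm, while the chromatin share came close to an even split. The mES shares by rank were 1.77%, 17.1% and 9.27%, keeping the direction. Between compartments by rank, HEK293 gave 82% for chromatin over nucleoplasm and 35.0% for nucleoplasm over cytoplasm in vivo, and 93.6%, 82.9% and 42.9% for chromatin over nucleoplasm, chromatin over cytoplasm and nucleoplasm over cytoplasm in vitro. The mES shares by rank for these 3 pairs were 10.8%, 12.4% and 51.7% in vivo and 83.5%, 26.2% and 14.4% in vitro. The differences of ENSMUST00000083860 and ENSMUST00000082547 in mES chromatin turned to -0.00703 and -0.0193. Requiring 60 shared nucleotides gave 33.2%, 29.0% and 19.9% higher in vivo in the HEK293 chromatin, nucleoplasm and cytoplasm files. Over nucleotides above 0 in both files, 48.6% in vivo and 41.0% in vitro were higher in HEK293 chromatin than cytoplasm, and 43.3% and 46.3% were higher in vivo in mES chromatin and nucleoplasm. Apart from the scales themselves, the cause of these changes was not tested. Near-copies and low listed abundance limit every count given here.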
